A study of Mus musculus with 4 samples.

Results

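Collagens are the trimeric proteins that make up most of the fibrous matrix between cells. Fibrillar chains assemble into the load-bearing fibrils of the interstitium, type IV chains form the sheet that lies under endothelium and around each heart muscle cell, and FACIT chains (fibril-associated collagens with interrupted triple helices) sit on the surface of fibrils. In the heart the fibrillar chains are made mainly by fibroblasts, and the amount and make-up of collagen change as the wall stiffens after birth. The genes described here were all protein-coding mouse genes whose GENCODE M21 symbol has the form Col, a number, a and a number, with at least 20 counts summed over the 4 libraries. Among 44 such genes counted by the authors, 38 met the minimum: 11 fibrillar, 6 of the basement membrane (type IV), 7 FACIT and 14 of other classes, out of 54752 gene identifiers in all. The member with the fewest counts had 29. The 6 genes below the minimum (Col6a4, Col6a5, Col9a1, Col10a1, Col17a1 and Col19a1) had 2 to 18 counts in total.

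The study profiled total RNA of mouse hearts at postnatal day 14 in 2 Carm1 mutant libraries and 2 wild-type libraries. Carm1, an enzyme that methylates arginines of histones and coactivators, is studied there for its part in cardiac maturation. The labels name neither the mutant allele, nor the tissue in which it acts, nor the strain. They also do not say that replicates are different animals, so each p-value reflects only the variation among 4 libraries, which may be technical. The design text calls the hearts neonatal.

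Library totals were 22217442 and 11677604 counts in the Carm1 mutant libraries and 21719161 and 20778420 in the wild-type libraries. Carm1 itself had 35.8 and 31.8 CPM (counts scaled to library size, here corrected by the trimmed mean of M values, TMM) in Carm1 mutant hearts, against 45.9 and 52.3 CPM in wild-type hearts (log2 fold change −0.54, SE 0.19, edgeR quasi-likelihood false discovery rate, FDR, 0.114). A count over the whole gene does not test an allele that removes part of it. Summed counts of 4 Y-linked genes (Ddx3y, Eif2s3y, Kdm5d and Uty) were 7 and 0 in the Carm1 mutant libraries, against 1769 and 2236 in the wild-type libraries. Counts of Xist, which coats the inactive X, were 8116 and 3921 in Carm1 mutant against 12 and 15 in wild type. Genotype and sex therefore cannot be told apart in any value below. The libraries differed in a respect that touches long transcripts. Across tested genes, each library's deviation from the mean of the libraries was correlated with transcript length. Spearman's rho was −0.337 in wild type replicate 1, 0.268 in wild type replicate 2, and 0.204 and −0.00347 in the Carm1 mutant libraries. The wild-type libraries thus lay furthest apart, in opposite directions. Deviations from a shared mean offset each other, so these values do not say which library is unusual. The longest annotated transcripts of the members had a median length of 6084 bases, against 3181 over all tested genes. For many of the members whose log2 fold change moved when wild type replicate 1 was left out, both values are given. Values without wild type replicate 2 are given for few of them.

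Collagen transcripts took a larger part of the Carm1 mutant libraries than of the wild-type libraries. The 38 genes together held 1.11% and 1.15% of all counts in the Carm1 mutant libraries, against 0.446% and 0.714% in the wild-type libraries. The groups did not overlap, and the wild-type libraries differed from each other far more than the mutant ones did. The ratio of the group means was 1.95 (exact two-sided permutation test, p = 0.333, which is the smallest p that 2 against 2 allows). Per effective (TMM) library size the shares were 0.982% and 0.987% in Carm1 mutant against 0.554% and 0.758% in wild type, a ratio of 1.501. In bulk RNA, more cells of a collagen-making type and more RNA per cell cannot be told apart.

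Among the 37 members that could be tested, 34 had a higher fitted level in Carm1 mutant hearts and 3 a lower one, with a median log2 fold change of 0.76, against 0.02 over all 15283 tested genes. Of these 37, 5 rose at an FDR below 0.05 (edgeR quasi-likelihood test, Benjamini-Hochberg over all tested genes) and 0 fell, where 2.79% of all tested genes rose and 4.58% fell. At an unadjusted p below 0.05 there were 16 higher members and 0 lower ones, where 13.1% of all tested genes were higher and 14.7% lower at that p, and DESeq2's Wald test called 11 higher and 0 lower (4.11% and 7.74% of all genes). Both Carm1 mutant libraries lay above both wild-type libraries in 29 members, where 30.3% of all tested genes had that order, and below both in 2 members, where 28.7% of all tested genes had that order. The 5 genes that rose were Col9a2, Col26a1, Col18a1, Col15a1 and Col8a1. None of them is a fibrillar or a type IV chain. Scaling by library totals alone raised the median over all tested genes to 0.41 on the log2 scale and that of the members to 1.13. The number of calls depended on the libraries. It was 9 without wild type replicate 1 (5.52% of all genes then rose and 8.76% fell) and 28 without wild type replicate 2 (16% rose and 19.5% fell). It was 2 without Carm1 mutant replicate 1 (1.52% rose and 1.15% fell) and 1 without Carm1 mutant replicate 2 (1.4% rose and 0.987% fell).

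Other settings fitted to all 4 libraries gave between 5 and 19 collagens called higher, and 0 lower. There were 5 with DESeq2 size factors (2.6% of all genes rose and 4.47% fell), with mitochondrially encoded genes left out (2.79% and 4.56%), with limma-voom (2.79% and 4.59%) and with a filter of 1 CPM in at least 2 libraries (3.35% and 5.09%). Upper-quartile factors gave 6 (3.31% and 3.62%), library totals 12 (7.78% and 1.35%), no filter 13 (4.42% and 5.52%) and an FDR of 0.10 gave 12 (7.05% and 9.23%). A replicate block gave 6 (3.8% and 4.2%) and the block with length and GC offsets 8 (8.52% and 11%). A crossed block, added after the data were seen, gave 19 (13.3% and 14%). The offsets were also fitted without wild type replicate 1, and the median log2 fold change of the members was then 0.45.

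**Figure D1:**
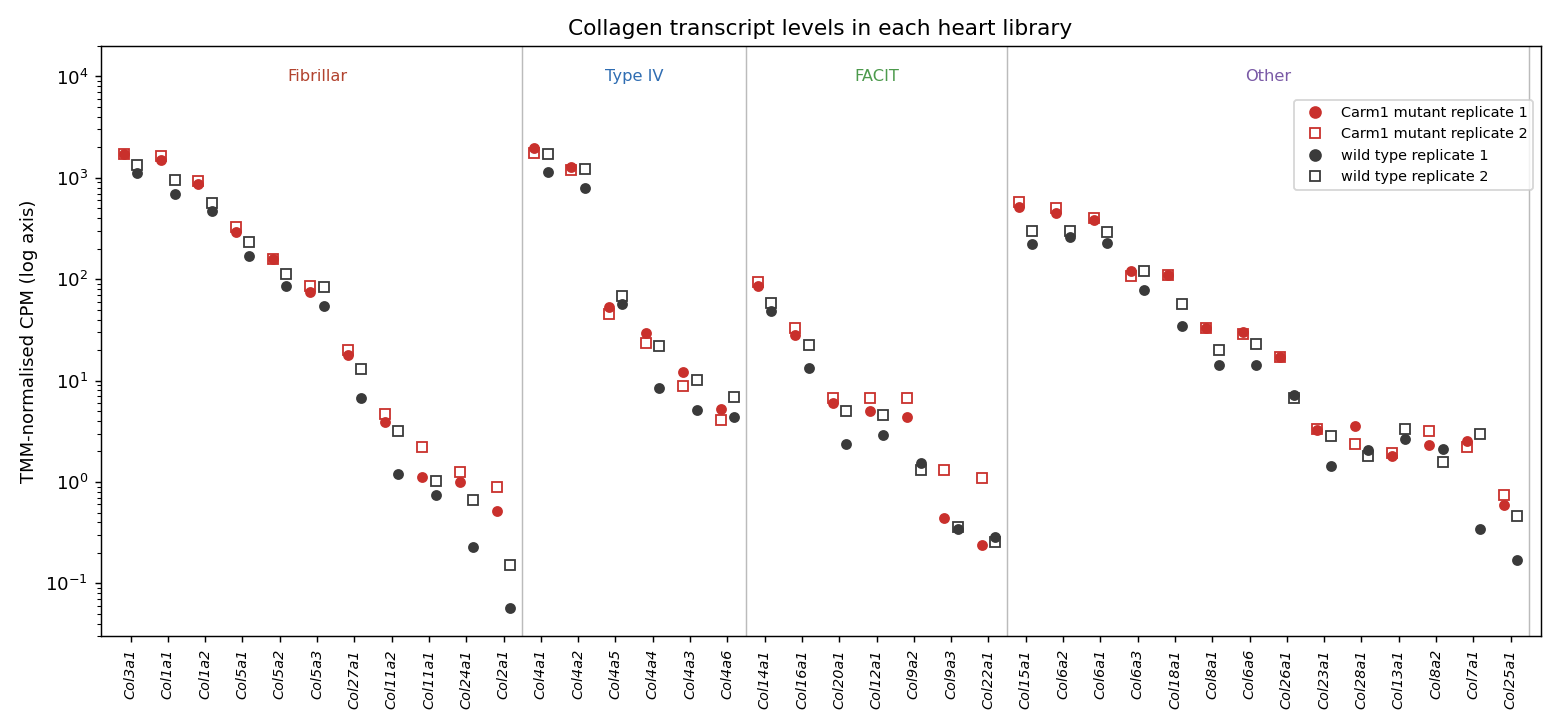
TMM-normalised CPM of the 38 collagen genes on a log axis in the 2 Carm1 mutant libraries (red, left of each pair) and the 2 wild-type libraries (dark, right), ordered by class and then by level. Wild type replicate 1 (filled dark circles) is the lowest of the 4 libraries in 30 of 38 genes, and the Carm1 mutant libraries lie close together.

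The 2 multiplexins rose together. Multiplexins are collagens with many interruptions that lie in the basement membrane zone, and their C-terminal fragments (endostatin from type XVIII, and a related fragment from type XV) restrain vessel growth. Col15a1 (ENSMUSG00000028339, GRCm38 chromosome 4, 47208161 to 47313167, plus strand), whose product joins the basement membranes of muscle and capillaries to the surrounding matrix, had 518 and 581 CPM in Carm1 mutant hearts, against 221 and 298 CPM in wild-type hearts. It was thus 2.12-fold higher (log2 fold change 1.08, SE 0.24, edgeR FDR 0.0362), with no overlap between the groups. Col18a1 (ENSMUSG00000001435, chromosome 10, 77052178 to 77166548, minus strand) had 111 and 110.3 CPM in Carm1 mutant hearts, against 34.7 and 56.5 CPM in wild-type hearts. The Carm1 mutant libraries lay nearly on one value while the wild-type libraries differed widely, and the log2 fold change was 1.28 (SE 0.26, edgeR FDR 0.0286). Both calls were lost when either mutant library was left out: the edgeR FDR of Col15a1 was then 0.209 and 0.321, and that of Col18a1 0.0557 and 0.0579, at log2 fold changes of 1.16 and 0.99 for Col15a1 and of 1.27 and 1.28 for Col18a1. Without wild type replicate 1 both kept an FDR below 0.05, with smaller log2 fold changes of 0.87 and 0.96.

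Col8a1 (ENSMUSG00000068196, chromosome 16, 57624258 to 57754737, minus strand) encodes a short-chain network collagen of vessel walls and of the corneal membrane. It had 33.3 and 33.2 CPM in Carm1 mutant hearts, against 14.2 and 19.97 CPM in wild-type hearts (log2 fold change 0.96, SE 0.22, edgeR FDR 0.0398). The wild-type libraries thus both lay below the nearly equal mutant libraries. Without Carm1 mutant replicate 1 and 2 in turn its FDR was 0.184 and 0.187 at an unmoved log2 fold change of 0.96 each time, and without wild type replicate 1 it was called at 0.72. Its partner chain Col8a2 had 2.31 and 3.17 CPM against 2.12 and 1.58 CPM (0.55, SE 0.36, edgeR FDR 0.356), with the groups not overlapping. The sequences before the RefSeq transcription starts of these 3 genes are shown because they are called members whose windows could be read free of annotated exons. Capitals mark every match to CCAAT or to GGGCGG on either strand, which appear as ATTGG and CCGCCC on the opposite one, and no TATAAA match was found in these 3 windows.
Col15a1, chr4:47207762-47208011, plus strand: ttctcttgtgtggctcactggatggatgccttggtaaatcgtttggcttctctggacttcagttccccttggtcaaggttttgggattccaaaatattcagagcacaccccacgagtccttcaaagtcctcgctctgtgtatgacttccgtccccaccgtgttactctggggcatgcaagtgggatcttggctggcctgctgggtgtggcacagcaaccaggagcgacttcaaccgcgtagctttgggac
Col18a1, chr10:77166549-77166780, minus strand: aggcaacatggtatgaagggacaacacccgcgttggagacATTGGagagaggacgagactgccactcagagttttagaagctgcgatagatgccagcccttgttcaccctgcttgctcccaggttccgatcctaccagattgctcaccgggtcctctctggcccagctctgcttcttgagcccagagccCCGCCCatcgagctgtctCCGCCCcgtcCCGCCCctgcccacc
Col8a1, chr16:57754738-57754987, minus strand: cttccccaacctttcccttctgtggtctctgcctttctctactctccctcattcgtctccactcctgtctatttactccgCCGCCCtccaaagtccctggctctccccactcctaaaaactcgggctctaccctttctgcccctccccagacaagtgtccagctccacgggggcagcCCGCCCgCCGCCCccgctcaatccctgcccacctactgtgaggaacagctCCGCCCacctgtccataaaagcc
The sequences are from RefSeq on GRCm38.p6, written 5′ to 3′ on the gene's strand.

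Col18a1 thus held 1 CCAAT and 3 GGGCGG matches in 232 bases, Col8a1 4 GGGCGG matches in 250 bases, and Col15a1 neither. Col18a1 has a second RefSeq start, and the window before that one held none of the 3 motifs. Of all 32851 RefSeq windows of 250 bases before a start, 33.8% held a CCAAT match, 32.7% a GGGCGG match and 12.4% a TATAAA match. The table had 31 windows for 29 of the 38 members, of which 10 held CCAAT, 20 held GGGCGG and 3 held TATAAA. No matching window was found for Col1a1, Col2a1, Col4a3, Col5a2, Col9a3, Col12a1, Col14a1, Col22a1 and Col26a1. A match is a run of letters and not a tested binding site.

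Col26a1 and Col9a2 were the other called members, and both were of low abundance. Col26a1 (ENSMUSG00000004415, chromosome 5, 136741759 to 136883209, minus strand) encodes a little-studied collagen first described in testis and ovary. It had 17.1 and 16.9 CPM in Carm1 mutant hearts, against 7.26 and 6.79 CPM in wild-type hearts. Both pairs agreed closely, and the log2 fold change was 1.28 (SE 0.20, edgeR FDR 0.0167). It was the one collagen called in every fit that left out a library, with log2 fold changes from 1.19 to 1.31 and an FDR of at most 0.0499. Col9a2 (ENSMUSG00000028626, chromosome 4, 121039385 to 121055322, plus strand) encodes a FACIT chain that coats type II fibrils in cartilage. It had 4.35 and 6.77 CPM in Carm1 mutant hearts, against 1.54 and 1.33 CPM in wild-type hearts, the largest called change among collagens at 3.82-fold (log2 fold change 1.93, SE 0.35, edgeR FDR 0.0227). Its FDR was 0.095 without Carm1 mutant replicate 2, the library with its highest level.

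The fibrillar chains were higher on average in Carm1 mutant hearts, but none of the 11 passed the test. All 11 had positive log2 fold changes, from 0.21 to 2.58 with a median of 0.86, and in 10 both mutant libraries lay above both wild-type libraries, an order that 30.3% of all tested genes had. Col1a1, the α1 chain of type I collagen and the main fibril former, had 1515 and 1648 CPM in Carm1 mutant hearts, against 691 and 953 CPM in wild-type hearts (log2 fold change 0.94, SE 0.25, edgeR FDR 0.0622). Its partner Col1a2, the α2 chain of type I, had 877 and 934 CPM against 473 and 563 CPM (0.80, SE 0.22, edgeR FDR 0.0677). For both chains every mutant value lay above every wild-type value, and the 95% intervals of the log2 fold changes ran from 0.36 to 1.53 and from 0.29 to 1.32. With 1 library left out at a time the log2 fold changes ranged from 0.72 to 1.16 for Col1a1 and from 0.67 to 0.90 for Col1a2. Col3a1, the type III chain that mixes with type I in pliable tissue, had 1732 and 1728 CPM in Carm1 mutant hearts, against 1108 and 1343 CPM in wild-type hearts (0.50, SE 0.24, edgeR FDR 0.214).

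Type V chains set the diameter of type I fibrils. Col5a1 had 290.1 and 329.6 CPM in Carm1 mutant hearts, against 168 and 235 CPM in wild-type hearts (log2 fold change 0.62, edgeR FDR 0.137). Col5a2 had 159.6 and 158 CPM against 86.6 and 113 CPM (0.67, edgeR FDR 0.0918). In these 2 chains the groups stayed apart, and without wild type replicate 1 the log2 fold changes were 0.38 and 0.47. Col5a3, the chain of the less common type V trimers, overlapped, with 74.7 and 85.3 CPM in Carm1 mutant hearts against 53.99 and 83.9 CPM in wild-type hearts. Its log2 fold change of 0.21 was −0.08 without wild type replicate 1 and −0.07 with offsets that remove each library's trend with transcript length and GC content.

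The remaining fibrillar chains were scarce. Col27a1, of cartilage and some epithelia, had 18.1 and 20.2 CPM in Carm1 mutant hearts against 6.75 and 12.97 CPM in wild-type hearts (log2 fold change 0.95, edgeR FDR 0.0924). Col11a2, Col11a1 and Col24a1, chains that start or regulate fibrils, averaged 4.31 ± 0.57, 1.66 ± 0.77 and 1.12 ± 0.18 CPM in Carm1 mutant hearts and 2.18 ± 1.4, 0.882 ± 0.20 and 0.446 ± 0.31 CPM in wild-type hearts (SD, n = 2 each). Their log2 fold changes were 0.96, 0.86 and 1.28 with edgeR FDRs of 0.200, 0.299 and 0.207. Without wild type replicate 1 the log2 fold changes of Col27a1, Col11a2, Col11a1 and Col24a1 were 0.54, 0.42, 0.62 and 0.72. Col2a1, the main collagen of cartilage, had 13 and 12 counts in the Carm1 mutant libraries against 1 and 3 in the wild-type libraries. Per effective library that is a ratio of 5.99, with an exact 95% counting interval from 2.07 to 23.7 that covers counting error only (edgeR FDR 0.0829).

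**Figure D2:**
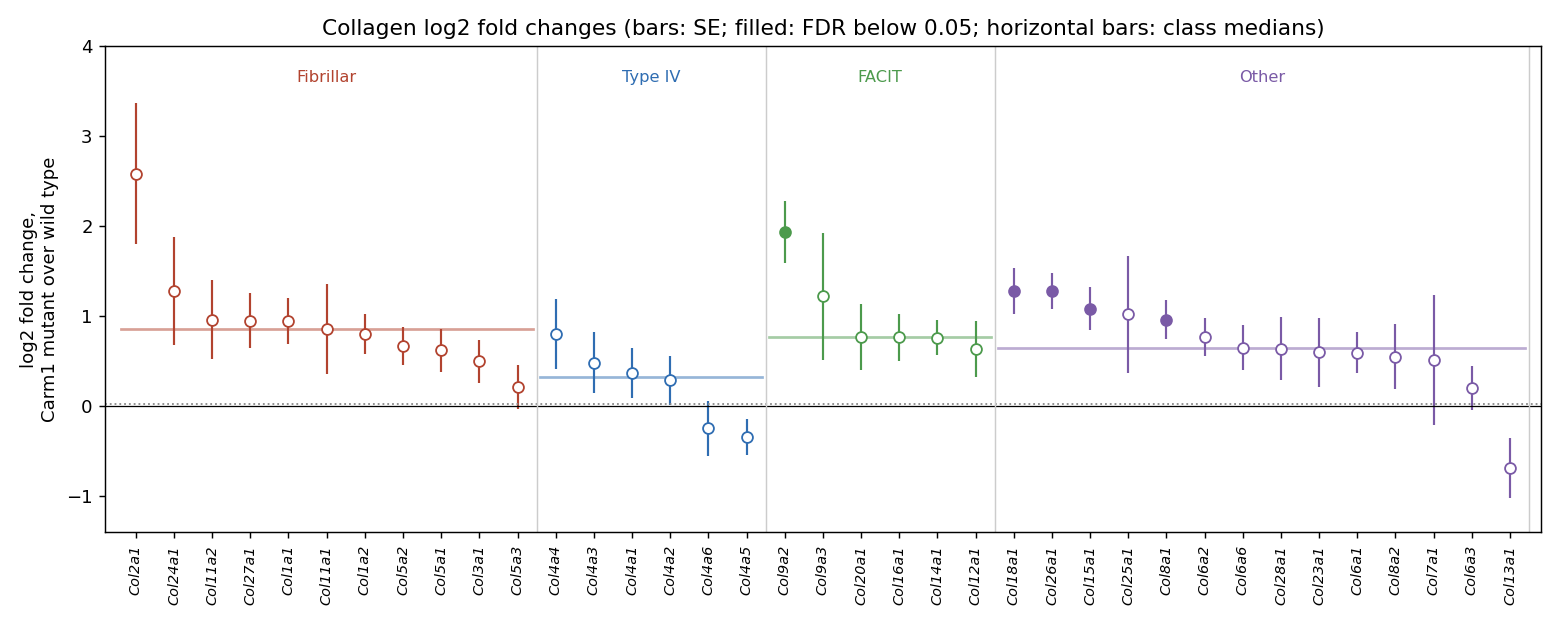
Log2 fold changes of the 37 tested collagens, Carm1 mutant over wild type, with SE bars, by class; filled symbols passed an FDR of 0.05, horizontal bars are class medians and the dotted line is the median of all tested genes (0.02). The fibrillar median is 0.86 and the type IV median 0.33, and the 5 filled symbols are Col9a2, Col18a1, Col26a1, Col15a1 and Col8a1.

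Type IV chains, the scaffold of basement membranes, had the smallest median log2 fold change of the 4 classes, 0.33, and none of the 6 passed the test. Col4a1 and Col4a2, which form the trimer found in almost every basement membrane, were among the most abundant collagens. Col4a1 had 1961 and 1740.1 CPM in Carm1 mutant hearts, against 1144 and 1719 CPM in wild-type hearts (log2 fold change 0.37, SE 0.27, edgeR FDR 0.417). Col4a2 had 1278 and 1182 CPM against 793 and 1222 CPM (0.29, SE 0.27, edgeR FDR 0.529). In both, wild type replicate 2 was close to the mutant libraries and wild type replicate 1 alone was low. Without wild type replicate 1 the log2 fold changes were 0.09 for Col4a1 and −0.01 for Col4a2, and with the length and GC offsets 0.13 and 0.01.

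The minor type IV chains differed in sign. Col4a3 and Col4a4, which with α5 build the tougher network of kidney and lung, had 12.3 and 8.91 CPM and 29.5 and 23.3 CPM in Carm1 mutant hearts, against 5.09 and 10.1 CPM and 8.46 and 21.8 CPM in wild-type hearts. Their log2 fold changes were 0.48 (edgeR FDR 0.391) and 0.81 (edgeR FDR 0.220). Without wild type replicate 1 these were 0.07 and 0.27, and without wild type replicate 2 they were 1.04 and 1.61, with edgeR FDRs of 0.0113 and 0.000253. The X-linked Col4a5 had 53.0 and 45.3 CPM in Carm1 mutant hearts, against 56.7 and 67.8 CPM in wild-type hearts, so that both mutant libraries lay lower (−0.34, 95% interval −0.80 to 0.12, edgeR FDR 0.306). The X-linked Col4a6, of smooth muscle basement membranes, had 5.26 and 4.12 CPM against 4.35 and 6.84 CPM (−0.24, edgeR FDR 0.642). With library totals in place of TMM factors these 2 values were 0.04 for Col4a5 and 0.12 for Col4a6. Both lie on X, and the groups differ in sex.

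The other 6 FACIT genes were low to moderate in level, and none of the 5 that could be tested passed. Col14a1, which lies on type I fibrils, was the most abundant, with 85.8 and 94.8 CPM in Carm1 mutant hearts against 48.8 and 57.7 CPM in wild-type hearts (log2 fold change 0.76, SE 0.19, edgeR FDR 0.0551). Col16a1, of fibroblasts and smooth muscle, had 28.4 and 32.8 CPM against 13.4 and 22.5 CPM (0.77, edgeR FDR 0.110). Col12a1, of tendon and other loaded tissue, and Col20a1 averaged 5.86 ± 1.2 and 6.38 ± 0.56 CPM in Carm1 mutant hearts and 3.73 ± 1.2 and 3.70 ± 1.9 CPM in wild-type hearts (SD, n = 2 each), with log2 fold changes of 0.64 and 0.77. In these 4 genes both mutant libraries lay above both wild-type libraries, an order that 30.3% of all tested genes had. Without wild type replicate 1 the log2 fold changes were 0.63 for Col14a1, 0.42 for Col16a1, 0.33 for Col12a1 and 0.31 for Col20a1. Col9a3, a partner of Col9a2, had 11 and 18 counts in the Carm1 mutant libraries and 6 and 7 in the wild-type libraries (1.22, SE 0.70, edgeR FDR 0.297). Col22a1, of tissue junctions, had 6 and 15 counts against 5 and 5 and was left out by the filter on low counts.

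Type VI chains form beaded microfibrils close to cells, and muscle disease follows their loss in humans. None of the 4 measured chains passed the test. Col6a2 had 453 and 506 CPM in Carm1 mutant hearts, against 263 and 299 CPM in wild-type hearts (log2 fold change 0.77, SE 0.21, edgeR FDR 0.0665). Col6a1 had 379.8 and 405 CPM against 227 and 292 CPM (0.60, SE 0.22, edgeR FDR 0.131), again without overlap. Col6a3, which completes the main trimer, did overlap, at 121 and 109 CPM against 78.8 and 121 CPM, and its log2 fold change of 0.20 was −0.09 without wild type replicate 1 and −0.05 with the length and GC offsets. Col6a6 had 30.5 and 28.5 CPM in Carm1 mutant hearts against 14.4 and 23.1 CPM in wild-type hearts (0.65, edgeR FDR 0.136). Its log2 fold change was 0.34 without wild type replicate 1, and that of Col6a1 was 0.41.

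The other scarce members did not pass the test either. Col13a1, a transmembrane collagen that clusters acetylcholine receptors at the neuromuscular synapse, was the lowest of all members in log2 fold change. It had 1.79 and 1.91 CPM in Carm1 mutant hearts against 2.63 and 3.32 CPM in wild-type hearts (−0.69, 95% interval −1.45 to 0.08, edgeR FDR 0.220), with no overlap. The transmembrane chains Col23a1 and Col25a1 had log2 fold changes of 0.60 and 1.02, with edgeR FDRs of 0.351 and 0.347. Their log2 fold changes were 0.18 and 0.49 without wild type replicate 1. Col28a1, found at peripheral glia, had 0.64 (edgeR FDR 0.276). Col7a1, of the anchoring fibrils of skin, had 2.55 and 2.21 CPM against 0.343 and 2.96 CPM, so that its value of 0.51 (SE 0.72, edgeR FDR 0.686) turned to −0.32 without wild type replicate 1.

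The make-up of the collagen counts does not depend on the scaling between libraries. Fibrillar chains were 47.6% and 49.8% of the collagen counts in the Carm1 mutant libraries, against 46.7% and 43.7% in the wild-type libraries. Type IV chains were 34.0% and 30.4% in Carm1 mutant against 36.3% and 40.2% in wild type. FACIT chains were 1.33% and 1.52% against 1.26% and 1.21%, and the other classes 17.1% and 18.3% against 15.7% and 14.9%. The groups did not overlap in any of the 4 shares: type IV was the smaller part in the mutant libraries, and each of the other classes the larger part. Each had p = 0.333 by the exact two-sided permutation test, the smallest that 2 against 2 allows, so no class is shown to differ from another. The 5 most abundant genes, Col4a1, Col3a1, Col1a1, Col4a2 and Col1a2, held 75% and 73.3% of collagen counts in Carm1 mutant against 76% and 76.5% in wild type.

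**Figure D3:**
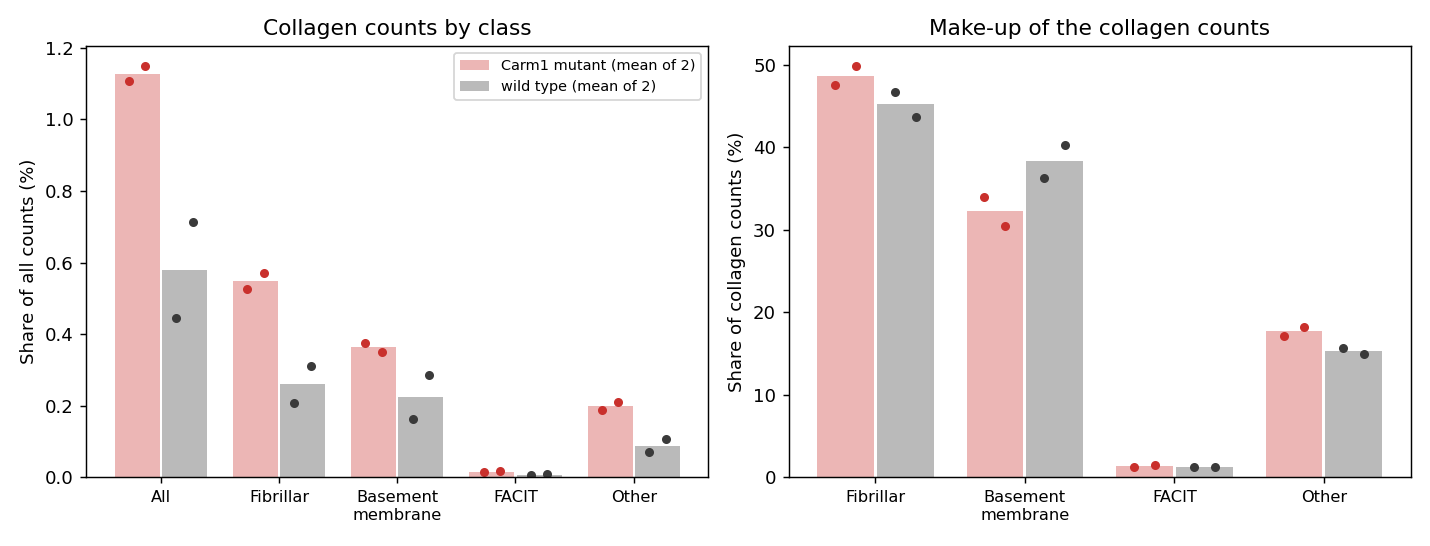
Left, collagen counts by class as a percent of all counts; right, each class as a percent of collagen counts; bars are means of 2 libraries (Carm1 mutant left and red, wild type right and grey) and points are the libraries. All collagens were 1.13% of counts in Carm1 mutant and 0.58% in wild type, and type IV was 32.2% and 38.3% of collagen counts.

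Ratios of chains within a library were also free of the scaling. Col1a1 exceeded Col1a2 by 1.73 and 1.77 in counts in the Carm1 mutant libraries and by 1.46 and 1.69 in the wild-type libraries. Col3a1 counts were 1.14 and 1.05 times those of Col1a1 in Carm1 mutant, against 1.60 and 1.41 times in wild type, a difference of −0.46 on the log2 scale with a pooled SD of 0.11 between libraries of a group. Col4a1 to Col4a2 stayed between 1.41 and 1.53 in all 4 libraries (mutant 1.53 and 1.47, wild type 1.44 and 1.41). Col6a3 to Col6a1 was 0.319 and 0.268 in Carm1 mutant against 0.348 and 0.414 in wild type. Of the 10 pairs examined, the groups did not overlap in 7, each with exact p = 0.333, so that none passed a test. How often ratios of other gene pairs do so was not computed. With the length and GC offsets the Col3a1 to Col1a1 difference was −0.31.

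Per kilobase of the longest annotated transcript, the order of the most abundant chains was led by Col3a1 in both groups. In Carm1 mutant hearts Col3a1 (311 CPM per kilobase), Col4a1 (279.8), Col1a1 (267), Col4a2 (191) and Col1a2 (169) came first, and only Col4a1 and Col1a1 overlapped among these neighbours. In wild-type hearts the order was Col3a1 (220.3), Col4a1 (216.5), Col4a2 (156), Col1a1 (139) and Col1a2 (96.9), where the first 4 overlapped their neighbours. Within each library, Col1a1 stood above Col4a2 in both Carm1 mutant libraries (255.6 against 198.2 and 278.0 against 183.2 CPM per kilobase) and below it in both wild-type libraries (116.5 against 123.0 and 160.8 against 189.5). Next came Col15a1 (106), Col6a2 (97.7) and Col6a1 (95.7) in Carm1 mutant, and Col6a1 (63.3), Col6a2 (57.3) and Col15a1 (50.2) in wild type.

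Removing each library's trend with transcript length and GC content lowered the 4 class medians, that of type IV by the most. The class medians were then 0.68 for fibrillar, 0.07 for type IV, 0.64 for FACIT and 0.55 for other chains, with 0.01 over all genes. In that fit 11 members rose and 0 fell, where 7.67% of all genes rose and 11.2% fell. They were the 5 genes above with Col1a1 (log2 fold change 0.70, edgeR FDR 0.0265), Col1a2 (0.64, edgeR FDR 0.0318), Col5a2 (0.56, edgeR FDR 0.0330), Col27a1 (0.68, edgeR FDR 0.0422), Col14a1 (0.65, edgeR FDR 0.0222) and Col6a2 (0.63, edgeR FDR 0.0314). Without wild type replicate 1 the medians were 0.54, 0.03, 0.63 and 0.58 in the same order, and Col1a1, Col1a2, Col14a1 and Col6a2 joined the 5 called genes. Type IV had the smallest median of the 4 classes in each of the 18 alternatives run. These reuse the same 4 libraries and are not separate tests of that order. A change of FDR threshold leaves the medians as they are, and a change of scaling moves all classes nearly alike.

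**Figure D4:**
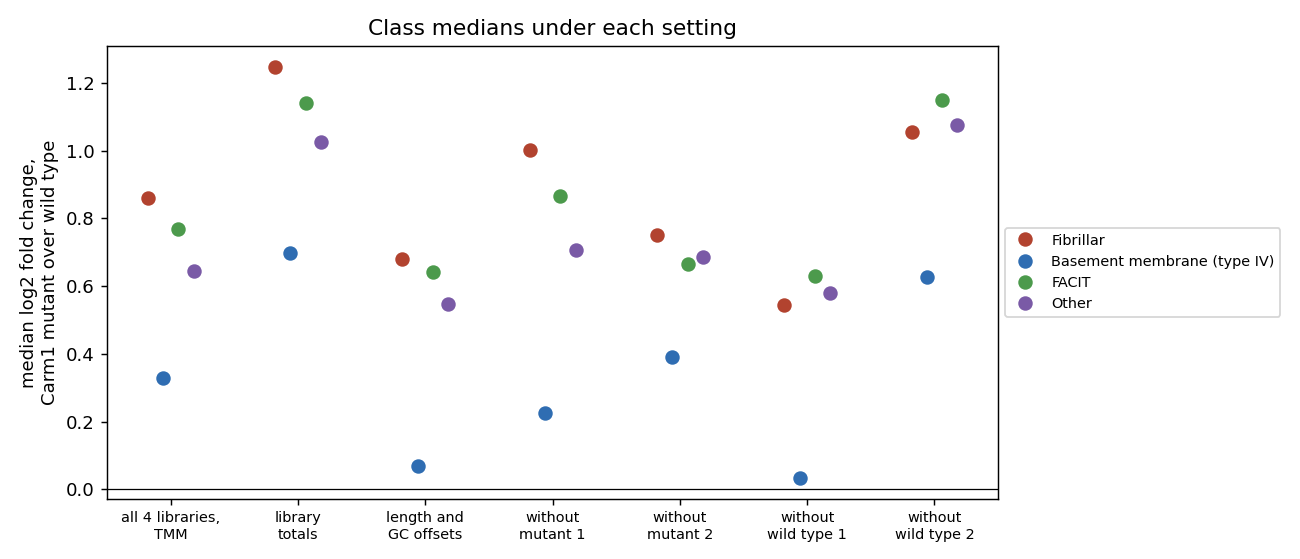
Median log2 fold change of each collagen class, Carm1 mutant over wild type, in the fit to all 4 libraries and in 6 alternatives. The type IV median ranges from 0.03 without wild type replicate 1 to 0.70 with library totals, and lies below the other 3 classes each time.

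Few of the genes that act on collagen passed the test, as was so of all tested genes, of which 2.79% rose and 4.58% fell. Of 15 tested genes that hydroxylate and glycosylate the chains, 0 rose and 1 fell (median log2 fold change 0.08): P3h4, a partner of lysyl hydroxylase, had 22.7 and 19.7 CPM in Carm1 mutant hearts against 47.9 and 34.2 CPM in wild-type hearts (−0.95, edgeR FDR 0.0439). None of 14 tested chaperone and export genes passed the test (median −0.07). Serpinh1, the collagen-specific chaperone HSP47, had 310 and 409 CPM against 391 and 292 CPM, and Fkbp9 had a log2 fold change of −0.01. None of 10 tested propeptide-processing genes passed it (median 0.09); Bmp1, the C-proteinase, had 189.5 and 182.9 CPM against 96.0 and 122 CPM (0.77, edgeR FDR 0.0646), and its enhancer Pcolce had a log2 fold change of 0.37.

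Of 6 cross-linking genes, 1 rose and 0 fell (median 0.44), where 2.79% of all tested genes rose and 4.58% fell. Loxl2, a lysyl oxidase that acts on type IV and fibrillar chains, had 26.6 and 31.4 CPM in Carm1 mutant hearts against 16.1 and 15.8 CPM in wild-type hearts (log2 fold change 0.86, SE 0.19, edgeR FDR 0.0375). None of 13 tested fibril-binding genes passed the test, though their median was 0.42, with Sparc at 0.42 and Dcn, the proteoglycan decorin, at 0.37. None of 14 tested genes of collagen breakdown and its inhibitors passed it (median 0.42). Because this list mixes enzymes with inhibitors such as the Timp genes, its median gives no direction of breakdown. The most abundant were Timp2, an inhibitor, at 0.15 and Mmp15 at −0.16. Among 11 tested receptors 1 rose and 0 fell (median −0.04): Itga2, the α2 integrin chain that binds collagen, had 2.99 and 4.05 CPM in Carm1 mutant hearts against 0.858 and 0.664 CPM in wild-type hearts (2.19, edgeR FDR 0.0222). Of 12 genes of the basement membrane and of its attachment to cells 0 rose and 1 fell (median 0.39). The gene was Dag1, dystroglycan, a laminin receptor of the cell surface, at 238 and 224 CPM against 469 and 532 CPM (−1.12, edgeR FDR 0.0256). None of 17 genes of TGF-beta input passed it (median 0.24), and the most abundant, Ccn2 and Ltbp3, had log2 fold changes of 0.24 and 0.52. The counts depended on the fit. With the length and GC offsets, under which 7.67% of all genes rose and 11.2% fell, 5 fibril-binding, 4 TGF-beta, 3 breakdown and 3 receptor genes rose, 2 cross-linking genes did, and each other list had 1. In that fit 1 gene fell in each of the hydroxylase, chaperone, breakdown, basement membrane and TGF-beta lists. With library totals 6 fibril-binding genes rose, 1 to 3 did in each other list, and 0 fell, where 7.78% of all genes rose and 1.35% fell.

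**Figure D5:**
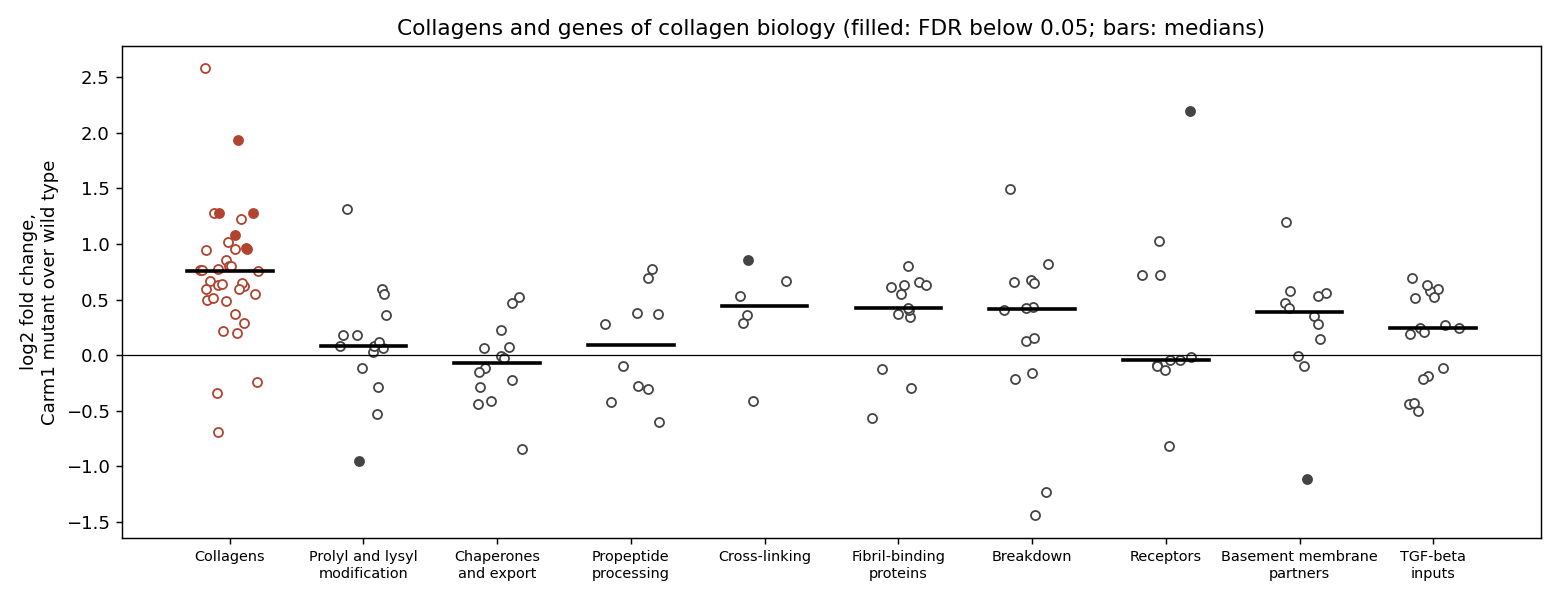
Log2 fold changes, Carm1 mutant over wild type, of the tested collagens and of 9 lists of genes that modify, export, process, cross-link, bind, degrade or sense collagen. The breakdown list also holds inhibitors of breakdown. Filled symbols passed an FDR of 0.05 and bars are medians. The collagen median is 0.76, and the list medians range from −0.07 for chaperones and export to 0.44 for cross-linking.

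Markers of cell types that make collagen were higher in part in Carm1 mutant hearts. Of 16 cardiac fibroblast markers 3 rose, 0 fell and 13 did not pass (median log2 fold change 0.63), where 2.79% of all tested genes rose, and their summed level was 2698 and 2983 CPM in Carm1 mutant hearts against 2255 and 2213 CPM in wild-type hearts. The 3 were Meox1 (1.33, edgeR FDR 0.0141), Postn (1.38, edgeR FDR 0.0189) and Pi16 (0.93, edgeR FDR 0.0381), while Dcn (0.37), Pdgfra (0.30) and Gsn (−0.56) did not pass. Of 8 myofibroblast markers 4 rose, 0 fell and 4 did not pass (median 0.72), with Postn, Cthrc1 at 1.68 and Ltbp2 at 1.29 first by FDR. The 4 that did not pass were Acta2 (0.14), Comp (0.12), Ddah1 (−0.04) and Lrrc15 (−0.64). This list summed to 2122 and 2412 CPM in Carm1 mutant hearts against 1688 and 1789 CPM in wild-type hearts. Acta2 alone held 1562.6 and 1692.5 CPM of these sums against 1430.4 and 1517.4 CPM. Of 12 endothelial markers 1 rose, Cldn5 (1.12, edgeR FDR 0.0257), and 11 did not pass (median 0.36), with sums of 2815 and 2483 CPM against 2013 and 2269 CPM. All 8 cardiomyocyte markers had negative log2 fold changes, of which Pln passed (−0.90, edgeR FDR 0.0443), and their sum was 40410 and 43140 CPM in Carm1 mutant hearts against 78000 and 68870 CPM in wild-type hearts. The tissue was thus heart by its markers in all 4 libraries. How many markers passed depended on the libraries kept. Without wild type replicate 1 and 2 in turn, median log2 fold changes were 0.575 and 0.46 for fibroblast and 0.58 and 1.27 for myofibroblast markers. They were 0.21 and 0.57 for endothelial and −0.75 and −0.85 for cardiomyocyte markers. Without Carm1 mutant replicate 1 and 2 in turn they were 0.66 and 0.51 for fibroblast and 1.04 and 0.51 for myofibroblast markers. For endothelial and cardiomyocyte markers these were 0.31 and 0.45, and −0.81 and −0.80. With the length and GC offsets 9 fibroblast markers rose and 2 fell, where 7.67% of all genes rose and 11.2% fell. With library totals 9 rose and 0 fell, where 7.78% of all genes rose and 1.35% fell. The part of these cell type markers in the collagen values was not tested.

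Of the chondrogenic and valve list 8 of 12 genes could be tested (median 1.10) and 1 rose, Sox9, a factor that drives Col2a1 and Col9a2 in cartilage, with 7.42 and 12.1 CPM in Carm1 mutant hearts against 2.80 and 3.12 CPM in wild-type hearts (1.70, edgeR FDR 0.0228). The list summed to 39.8 and 43.5 CPM against 29.6 and 38.9 CPM, and Matn1, a matrilin of cartilage, had no count in any library. Of the bone list 2 of 6 could be tested and 1 fell, Alpl (−0.83, edgeR FDR 0.0360). The other, Runx2, did not pass (1.78, edgeR FDR 0.0599). It had 36 and 24 counts in the Carm1 mutant libraries against 7 and 10 in the wild-type libraries. Ibsp, a defining marker, had no count in any library. The sums were 50.1 and 48.5 CPM against 86.5 and 84.4 CPM, of which Alpl held 48.4 and 46.7 CPM against 85.8 and 83.6 CPM. Of 8 epicardial markers 1 rose, Wt1 (0.99, edgeR FDR 0.0345), where 2.79% of all tested genes rose and 4.58% fell. Most went the other way: 5 of the 8 had negative log2 fold changes and 3 positive ones. The epicardial median was −0.80, with sums of 67.1 and 51.7 CPM against 68.0 and 66.2 CPM. None passed among 10 mural (median −0.04; Acta2 0.14, Rgs5 0.31), 6 endocardial (0.08; Vwf 0.37, Nfatc1 −0.02), 6 Schwann cell (0.39; Sox10 0.63), 8 macrophage (0.17; Lyz2 0.18, C1qb 0.25) and 5 red blood cell genes (0.03; Hba-a1 0.31, Hbb-bs 0.03). The part of these cells in the collagen values was not tested either.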

How the data were processed

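RNA of mouse hearts was sequenced from 2 Carm1 mutant and 2 wild-type libraries, prepared by BGI per the labels. The submitters' processing notes name FastQC, HISAT2 and mm10. Not given in the sources used here are versions, the program that counted reads, its annotation and strand setting, and how multiply mapped reads were handled. The authors deposited unnormalized whole-number counts for each gene, which were used unchanged. Of 54752 identifiers 54723 had a GENCODE M21 name, and 29 had none.

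Genes were kept by filterByExpr at its defaults (15283 left), scaled by TMM (factors 1.13 and 1.165 in Carm1 mutant, 0.806 and 0.943 in wild type) and fitted on genotype alone in edgeR 4.0.16 under R 4.3.3, leaving 2 residual degrees of freedom. Quasi-likelihood p-values were adjusted over all tested genes (Benjamini-Hochberg, threshold 0.05). SE is the log2 fold change over the square root of F; ± is the SD of 2 libraries. Chi-square per degree of freedom over genes with at least 10 counts was 11.4 between the mutant and 51.1 between the wild-type libraries, so no library repeated another within counting error. Annotated overlaps of member exons with other genes covered at most 6.07% of a member. Length and GC offsets were natural splines with 5 degrees of freedom for log transcript length and for GC content, fitted per library to deviations of log2 CPM (prior count 2) over genes of at least 1 CPM.

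Alternatives changed the scaling (library totals, upper-quartile factors, DESeq2 size factors), the genes kept (mitochondrially encoded genes left out, no filter, 1 CPM in at least 2 libraries) or the tool (DESeq2 1.42.0, voom in limma 3.58.1). Further ones were an FDR of 0.10, the offsets, each library left out (a group of 1 is then assumed to vary like the other), and a replicate block; a crossed block and the offsets without wild type replicate 1 were added after the data were seen. The fit and the offsets were tested on simulated data.

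Members, classes and lists were chosen with earlier results of these data known. The text names every member, Carm1 and sex-linked genes, and from each list up to 4 called genes (3 for markers) with the lowest FDR, or, in lists with no call, the 2 genes of highest level (1 such gene is not reported here); Pdgfra, Gsn and Dcn among the fibroblast markers, and the genes at 0, were chosen after their values were seen.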

Additional observations from a re-analysis of the deposited data

How the results depend on the processing

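Of the 37 tested collagens all kept the sign of their log2 fold change, and none lost or gained a call, under DESeq2 size factors, limma-voom and the fit without mitochondrially encoded genes; the same held for the 34 left by a filter of 1 CPM in at least 2 libraries. No alternative called a collagen lower. Calls higher among collagens were 12 with library totals, 13 without a filter on low counts, 11 with DESeq2's Wald test, 12 at an FDR of 0.10 and 11 with the length and GC offsets, and each of these sets held the 5 genes called from all libraries. Leaving out 1 library gave 1 to 28 collagen calls, 221 to 2553 genes called higher and 156 to 3126 called lower, since the pair that stays whole then sets the spread. Over all genes the higher and lower calls were 1189 and 206 with library totals, 1169 and 1461 without a filter, 591 and 1114 with DESeq2's Wald test, 1077 and 1411 at an FDR of 0.10, and 1172 and 1718 with the offsets. With library totals the class medians were 1.25 (fibrillar), 0.70 (type IV), 1.14 (FACIT), 1.02 (other) and 1.13 (all collagens); leaving out 1 library gave 0.54 to 1.05, 0.03 to 0.63, 0.63 to 1.15, 0.58 to 1.08 and 0.45 to 1.02 in that order. The log2 ratio of the collagen share of counts was 0.59 per effective library size and 0.66 to 1.34 with a library left out.

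Signs turned in few members, none of them called from all 4 libraries. With library totals they were Col4a5 (0.041) and Col4a6 (0.12), and with the offsets Col5a3 (−0.067) and Col6a3 (−0.048). Leaving out 1 library gave −0.0050 to 0.60 for Col4a2, −0.085 to 0.53 for Col5a3, −0.090 to 0.51 for Col6a3, −0.32 to 2.75 for Col7a1 and −0.54 to 0.091 for Col4a6. With the offsets and without wild type replicate 1 there were 12 collagen calls, 1124 genes higher and 1745 lower, class medians of 0.55 (fibrillar) and 0.45 (all collagens), and values of −0.063 (Col4a2), −0.15 (Col5a3), −0.40 (Col7a1) and −0.070 (Col6a3). The cause of these changes was not tested.

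Replicates that share a number deviated in opposite directions (correlation −0.247 across genes), and nothing in the labels says that a number pairs libraries. The replicate block gave 6 collagen calls, with 580 genes higher and 642 lower. The replicate block with the offsets gave 8, with 1302 higher and 1677 lower, Col5a3 at −0.071 and Col6a3 at −0.048. The crossed replicate block gave 19, with 2037 higher and 2139 lower. Its pairing, for which the correlation is 0.247, was added after the data were seen. A pairing picked that way can shrink the residual spread, so these counts are not a separate check. The 4 tested members that averaged below 1 CPM (Col2a1, Col9a3, Col24a1 and Col25a1) had SEs of 0.595 to 0.784, and none was called at this depth.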

Other observations

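Several collagen genes lie next to each other on the genome, and their values can be set side by side. Col4a4 and Col4a3 run in opposite directions from starts 71 bases apart on chromosome 1, Col4a6 and Col4a5 from starts 1308 bases apart on X, and the starts of Col4a1 and Col4a2 overlap by 22 bases on chromosome 8 (GENCODE M21). Log2 fold changes of the neighbours were 0.81 and 0.48, −0.24 and −0.34, and 0.37 and 0.29, so that each pair shared a sign in the fit to all 4 libraries. Col3a1 and Col5a2, fibrillar chains that converge on chromosome 1 with 24614 bases between them, had 0.50 and 0.67. Col6a2 and Col6a1, 85161 bases apart on chromosome 10, had 0.77 and 0.60.

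Across the 37 tested members, log2 fold change had a Spearman's rho of −0.276 with transcript length, 0.126 with GC content and −0.273 with mean level; the points share the same 4 libraries, and low members have the widest errors. The wild-type libraries differed by a median of 0.587 on the log2 scale in these genes and the Carm1 mutant libraries by 0.179. Wild type replicate 1 lay below wild type replicate 2 in 33 of the 38 members.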
